A study of Mus musculus with 21 samples.

Results

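The data described here are the colon transcriptomes of germ-free mice at day 0, before any dextran sulfate sodium (DSS), and they fill 13 of the 21 arrays of the series. An array was taken when its labels gave day 0, and this left 7 arrays labelled GF Card9-/- and 6 labelled GF WT. GF stands for germ-free: such mice are bred in isolators and carry no living microbes, and these were fed a diet without yeast. Both labels give the C57BL/6J background, colon as the tissue and male as the sex, and both carry DSS as the treatment although day 0 comes before it. RNA came from total colon tissue and 1 RNA sample went on each array. The age of these mice is not given in the sources used here, and nothing says whether mice shared a litter or cage, so the spread below is that between these samples. By its labels, the comparison addresses what loss of *Card9* alone changes in the colon at rest.

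Innate immune cells of the myeloid lineage use CARD9 to pass a signal from surface receptors to gene transcription. C-type lectin receptors, among them dectin-1 (encoded by *Clec7a*), sense fungal cell walls and signal through the kinase SYK. CARD9 then assembles with BCL10 and MALT1, and this complex turns on NF-κB and the transcription of cytokine genes. In the gut this pathway is known for its role in antifungal defence and in the IL-22 response that protects the epithelium.

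Transcripts were read with Agilent arrays of a single color, whose probes are oligonucleotides of 60 bases. Values are log2 of the processed signal after quantile normalization over the 13 arrays, and a difference is always the mean of the arrays labelled GF Card9-/- minus the mean of those labelled GF WT. A probe entered the test if 60% or more of the arrays of either label gave it a signal that differed from the local background (p under 0.05). "Well above background" is the stricter call of the scanner software. Of 56605 probes 47410 were tested, which covers 23176 genes with a symbol. Between 54.5% and 63.5% of the spots of the arrays labelled GF Card9-/-, and between 57.5% and 64.9% of those of the arrays labelled GF WT, were well above background. The 13 arrays lie on 4 slides, which were scanned in 2 sessions. Slides 2 and 3 hold 2 arrays of each label. Slide 1 holds 1 of each (GF Card9-/- replicate 7 and GF WT replicate 1), and slide 4 holds 2 labelled GF Card9-/- and 1 labelled GF WT (replicate 6), so values within slides 1 and 4 rest on single arrays, 2 of which stood apart as described below.

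*Card9* has 2 probes on this array design and both carry the check of the labels, so their sequences are given here as the files list them, 5′ to 3′ in lower case. Of probe A_66_P128849 (chromosome 2, 26208066 to 26208504 on the NCBI37 build) the first 30 of 60 bases are shown, and probe A_66_P135237 (26212384 to 26212744) is shown whole. Each interval is longer than the probe, so both probes span an intron.
Card9 A_66_P128849: agccctttatggctctgaacaaggagcatc
Card9 A_66_P135237: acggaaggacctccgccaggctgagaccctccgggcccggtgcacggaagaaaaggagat

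The deleted gene went against the labels. For probe A_66_P128849 the log2 signal in the arrays labelled GF Card9-/- replicates 1 to 7 was 8.73, 9.05, 8.88, 8.72, 8.97, 8.71 and 9.24. In the arrays labelled GF WT replicates 1 to 6 it was 2.33, 2.33, 2.30, 2.32, 2.31 and 2.33. Every array labelled GF Card9-/- was thus high and every array labelled GF WT was at the floor, and no array crossed over. The difference was 6.58 (SE 0.084, limma adjusted p = 2.92e-13), and against the dimmest signal well above background this is a signal at least 21.5-fold above that of the GF WT label. The other probe, A_66_P135237, lay between 6.75 and 7.51 (median 7.09) in the arrays labelled GF Card9-/- and between 2.85 and 3.77 (median 3.36) in those labelled GF WT. Its difference was 3.80 (SE 0.16, adjusted p = 4.11e-07), or at least 6.23-fold. Both probes were well above background on 7 of 7 arrays of the first label and on 0 of 6 of the second, and they entered the test through the first label alone. The difference of A_66_P128849 was 6.91, 6.64, 6.42 and 6.51 within slides 1 to 4. Arrays are therefore named below by their labels only, and every direction is that of the labels. A gene given as higher was thus higher in the arrays with *Card9* signal, and if genotype followed that signal and not the labels, every direction would be reversed as an effect of losing *Card9*.

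A second label could be checked in the same way. All 13 arrays are labelled male. *Xist*, the RNA that silences an X chromosome in female cells, was well above background on 13 of 13 arrays, with a processed signal of 307 to 653. Of the 13 probes for the Y-linked genes *Ddx3y*, *Eif2s3y*, *Kdm5d* and *Uty*, 10 were well above background on 0 of 13 arrays, 2 on 1 array each, and 1 *Kdm5d* probe on all 13. The 8 arrays of day 7, also labelled male, differed: both *Xist* probes were well above background on 0 of 8 arrays, and the probes for *Ddx3y* (489 to 842) and *Eif2s3y* (1190 to 2120) on 8 of 8, while a *Kdm5d* probe was so on 3 of 8 and the 2 *Uty* probes on 5 and 4 of 8. *Xist* did not separate the genotype labels at day 0, with log2 means of 8.94 and 8.93.

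Across the genome few probes separated the labels. At an adjusted p under 0.05, 12 of 47410 probes passed the limma test (0.0253%). Of these 7 were higher under the GF Card9-/- label (0.0148% of the probes tested) and 5 were lower (0.0105%). They belong to 8 named genes and 1 unnamed transcript, and for all 12 the values of the labels did not overlap, as was the case for 217 of all probes tested (0.458%). At an adjusted p under 0.10 the count was 29 (0.0612%), with 17 higher and 12 lower. At an unadjusted p under 0.05 it was 2769 (5.84%), with 1845 higher and 924 lower. The median difference over all probes was 0.015 and the 5th and 95th percentiles were −0.50 and 0.40. A difference of at least 1 on the log2 scale was seen for 456 probes, of which 9 passed the test.

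**Figure D1:**
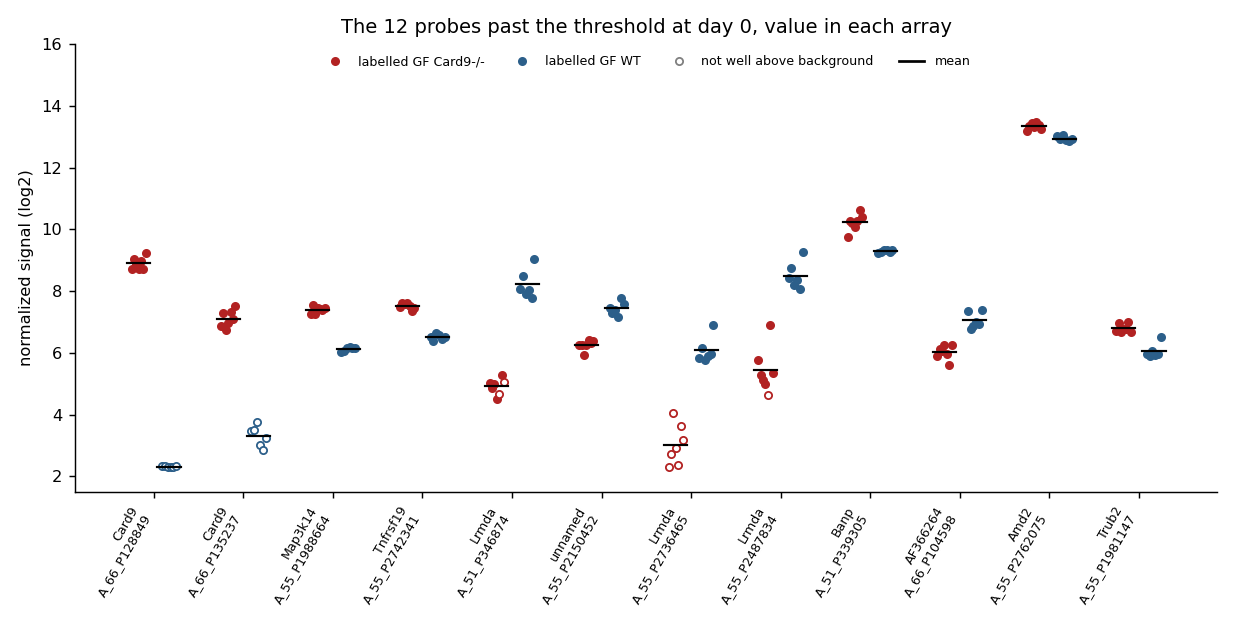
Normalized log2 signal (y axis) of the 12 probes past the threshold (x axis, in order of p), with 1 point per array, red for the 7 arrays labelled GF Card9-/- and blue for the 6 labelled GF WT, where open points are not well above background and the bar is the mean. The points of the labels do not overlap for any of the 12 probes, and the largest gaps are those of *Card9* and *Lrmda*.

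*Lrmda*, a gene needed for melanocyte differentiation that encodes a leucine-rich melanocyte protein, was the gene lowest in the arrays labelled GF Card9-/-. It lies on chromosome 14, and 3 of its 4 probes fell. Probe A_55_P2736465 spans an intron (23403754 to 23415692), while A_51_P346874 (23875226 to 23875285) and A_55_P2487834 (23875251 to 23875310) share 35 bases and are not independent measurements. The intron-spanning probe is shown because it reads spliced RNA in another part of the gene than the other probes.
Lrmda A_55_P2736465: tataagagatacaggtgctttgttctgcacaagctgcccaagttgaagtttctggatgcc

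For A_51_P346874 the log2 signal was 4.50 to 5.28 (median 4.98) in the arrays labelled GF Card9-/- and 7.79 to 9.03 (median 8.06) in those labelled GF WT. The difference was −3.31 (SE 0.20, adjusted p = 7.04e-06), a 9.94-fold lower signal, although GF Card9-/- replicates 5 and 7 gave no signal well above background (5 of 7 did). For A_55_P2487834 it was −3.07 (SE 0.33, adjusted p = 0.00354), with replicate 5 of that label not well above background. The intron-spanning probe fell by 3.06 on the log2 scale (SE 0.30, adjusted p = 0.00133), and with 0 of 7 arrays labelled GF Card9-/- well above background this stands for a signal at least 2.82-fold lower. All 3 probes were lower within each of the 4 slides, with differences between −4.06 and −2.64. The remaining probe, A_55_P2636636, differed by −0.73 (adjusted p = 0.580) and was well above background on no array (0 of 13).

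*Map3k14* and *Tnfrsf19* each had a single probe that rose, beside other probes of the gene that did not pass the test. *Map3k14* encodes NIK, the kinase that drives the noncanonical NF-κB pathway, and *Tnfrsf19* encodes the TNF receptor family member TROY. Their probes are shown because the difference was seen at these stretches alone.
Map3k14 A_55_P1988664: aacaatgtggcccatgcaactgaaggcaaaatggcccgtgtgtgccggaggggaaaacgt
Tnfrsf19 A_55_P2742341: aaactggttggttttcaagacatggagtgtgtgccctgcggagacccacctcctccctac

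Probe A_55_P1988664 of *Map3k14* (chromosome 11, 103101069 to 103101128) ran from 7.25 to 7.56 (median 7.43) in the arrays labelled GF Card9-/- and from 6.04 to 6.19 (median 6.17) in those labelled GF WT. The difference was 1.27 (SE 0.059, adjusted p = 6.2e-07), or 2.41-fold, and 1.19 to 1.42 within the slides. The other probes of *Map3k14*, A_52_P364130 and A_66_P119593, differed by −0.025 (adjusted p = 0.988) and 0.003 (adjusted p = 0.999) and were well above background on all 13 arrays. A single probe of the gene thus stood apart. Probe A_55_P2742341 of *Tnfrsf19* (chromosome 14, 61615452 to 61615511) ran from 7.35 to 7.62 (median 7.51) against 6.39 to 6.63 (median 6.50). The difference was 1.01 (SE 0.059, adjusted p = 7.04e-06), while its other tested probe, A_51_P399305, differed by −0.32 (adjusted p = 0.912).

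*Trub2* and *Amd2* rose by less, and their other probes lay on the same side. *Trub2* encodes a pseudouridine synthase of mitochondria and lies on chromosome 2, 3.42 Mb from *Card9*. Its probe A_55_P1981147 was 6.69 to 7.00 (median 6.77) against 5.89 to 6.53 (median 5.97), a difference of 0.75 (SE 0.10, adjusted p = 0.0391). A_51_P104933, the bright probe of *Trub2*, differed by 0.46 (adjusted p = 0.0722), and the third, A_55_P1981150, by 0.24 while well above background on no array (0 of 13). *Amd2* encodes an S-adenosylmethionine decarboxylase of polyamine synthesis. Probe A_55_P2762075 of *Amd2* was 13.18 to 13.46 (median 13.35) against 12.86 to 13.05 (median 12.91), a 1.33-fold difference of 0.41 (SE 0.057, adjusted p = 0.0391). The other probes of *Amd2* differed by 0.45 (A_55_P2014506), 0.42 (A_55_P2014511) and 0.39 (A_55_P2745572), with adjusted p of 0.105, 0.627 and 0.840. *Amd2* closely resembles *Amd1*, so the probes may read both.

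The other 3 probes past the threshold belong to genes with 1 probe each. *Banp*, which encodes a DNA-binding protein that controls CpG-rich promoters, ran from 9.74 to 10.64 (median 10.28) against 9.23 to 9.34 (median 9.30), a difference of 0.94 (SE 0.11, adjusted p = 0.0123). *AF366264*, a predicted gene on chromosome 8, was 5.62 to 6.27 (median 6.05) against 6.79 to 7.40 (median 6.97) and fell by 1.04 (SE 0.13, adjusted p = 0.0191). The unnamed transcript of A_55_P2150452 on chromosome 2 was 5.92 to 6.43 (median 6.27) against 7.17 to 7.78 (median 7.42) and fell by 1.19 (SE 0.10, adjusted p = 0.000574). All 12 probes had the same direction within each of the 4 slides. The calls of *Amd2*, *Trub2*, *AF366264* and *Banp* were lost in 19, 17, 9 and 7 of 25 other settings of the analysis, in the same direction. Other calls were lost in some settings too. With the replicate number as a block 7 of the 12 stayed, and the count on chromosome 14 was 3 in place of 4.

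A further 17 probes had an adjusted p between 0.05 and 0.10 and are given as values only. Higher in the arrays labelled GF Card9-/- were *C2cd4a* (1.25, adjusted p = 0.0722), *Dnaja1* (0.58, adjusted p = 0.085), *Pprc1* (0.55, adjusted p = 0.063), *Ccdc86* (0.50, adjusted p = 0.0767), *Rpp38* (0.47, adjusted p = 0.0763), *Uspl1* (0.45), *Rbm12* (0.42) and *Ube2g2* (0.37). Lower were *6530402F18Rik* (well above background on 2 of 7 arrays labelled GF Card9-/- and 6 of 6 labelled GF WT), *Erdr1* (−1.65), *Sardh* (−0.75), *Zc3h6* (−0.73), *Entpd4* (−0.64) and *2410022M11Rik* (−0.59), with adjusted p of 0.063 to 0.085. An unnamed X-linked transcript (A_51_P286431) differed by −2.15, which stands for a signal at least 1.59-fold lower. These genes were chosen after their values were seen. The probe for the unnamed chromosome 4 transcript A_55_P2135967 (40679850 to 40679909, difference 0.63) lies next to that for *Dnaja1* (40679954 to 40680014), so both may read the same RNA.

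The probes past the threshold came from few genes of each chromosome. Chromosome 14 held 4 of its 1769 tested probes (0.226%), of which 3 are *Lrmda* and 1 is *Tnfrsf19*. Chromosome 2 held 4 of 3821 (0.105%), of which 2 are *Card9*, against 0.0253% over all probes, and the difference between the chromosomes was not tested. Within 5 Mb of *Card9* 394 probes were tested and 3 passed, of which 2 are *Card9* itself and 1 is *Trub2*. With *Card9* left out, 12% of the 392 probes in this window had an unadjusted p under 0.05, against 5.54% on the rest of chromosome 2 and 5.80% on the other chromosomes. The labels did not overlap for 2.55% of the probes of the window, against 0.438% and 0.436%. The difference between these shares was not tested. Without GF WT replicate 6 the count within 5 Mb was 6 in place of 3.

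**Figure D2:**
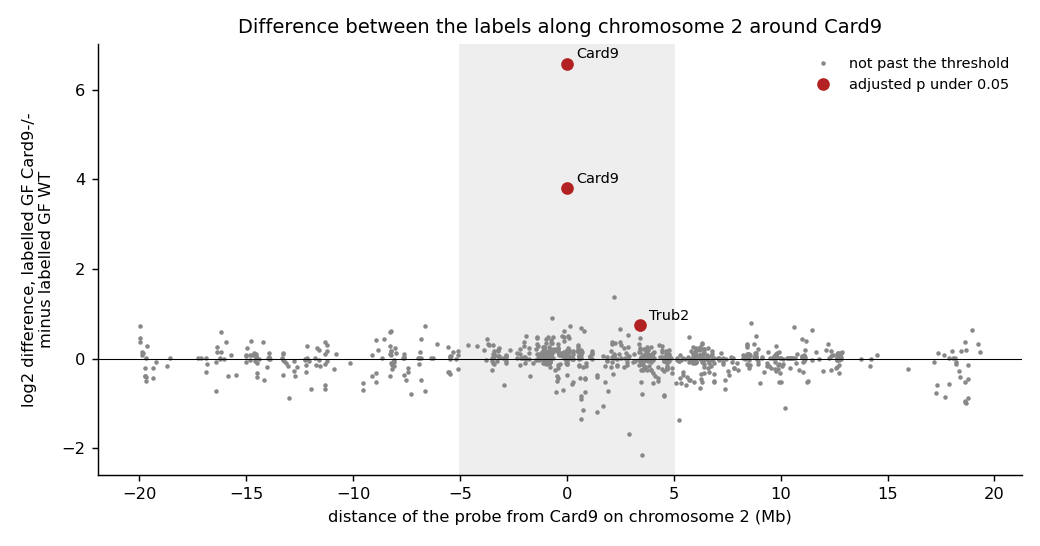
Log2 difference between the labels (y axis) of each tested probe near *Card9* against its distance from *Card9* on chromosome 2 in Mb (x axis), where the grey band is the window of 5 Mb to each side and red points passed the threshold. The *Card9* probes stand at 6.58 and 3.80 and *Trub2* at 0.75, and probes that did not pass lie on both sides of 0, some of them farther from it than *Trub2*.

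Near *Card9*, several genes differed in values that did not pass the test. *Sardh*, a mitochondrial enzyme of sarcosine breakdown at 0.83 Mb, was 8.72 ± 0.19 (SD, n = 7) against 9.47 ± 0.26 (SD, n = 6). *Coq4*, a gene of coenzyme Q synthesis at 3.44 Mb, differed by 0.66 (limma adjusted p = 0.115) and *Zmynd19* at −1.40 Mb by 0.49 (adjusted p = 0.338). *Rxra*, the retinoid X receptor alpha, at 1.41 Mb, differed by −0.37 (adjusted p = 0.249), and *Mrps2* at 2.12 Mb by 0.33 (adjusted p = 0.154). The labels did not overlap for any of these 5. *6530402F18Rik*, named above among the lower genes, also lies in the window, at 2.89 Mb, and its labels did not overlap either. The window thus held both higher and lower genes.

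On chromosome 14 the labels did not overlap for 21 probes (1.19%, against 0.458% of all probes), which lie between 8923661 and 103377137, and the difference between these shares was not tested. *Tmem254a* probes A_55_P2110290 and A_51_P222453 differed by −0.996 and −1.036 (adjusted p of 0.175 and 0.166), and the *Tmem254c* probe, which belongs to a near-identical copy, by −1.01 (adjusted p = 0.181). *Slc25a37*, the mitochondrial iron carrier mitoferrin-1, differed by −1.63 (A_55_P2032445, adjusted p = 0.310). Its probe A_52_P622941 was lower too (adjusted p = 0.392) and was well above background on 3 of 7 and 6 of 6 arrays. *Gnl3*, which encodes nucleostemin, differed by 0.44 (adjusted p = 0.175) and *Polr3d*, a subunit of RNA polymerase III, by 0.32 (adjusted p = 0.166). The proteases *Mcpt1* (56638928 to 56638987) and *Mcpt4* (56678589 to 56678648) belong here too and are described with the mast cell genes.

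A set of cytokine and epithelial defence genes is tied to the colitis question, namely *Tnf*, *Il1b*, *Il22*, *Il17a*, *Reg3g* and *Reg3b*. Before DSS 0 of them passed the limma test or reached an unadjusted p of 0.05. *Tnf* was 5.95 to 6.46 (median 6.17) against 5.79 to 6.27 (median 6.06), a difference of 0.12 (SE 0.10, adjusted p = 0.912). *Il1b* was 2.80 to 6.56 (median 5.26) against 2.65 to 6.64 (median 5.85), and its difference of −0.09 (SE 0.70, adjusted p = 0.991) was small beside its range. It was well above background on 5 of 7 and 4 of 6 arrays, and without GF Card9-/- replicate 7 the difference was 0.31. *Il22* and *Il17a*, the cytokines of type 17 lymphocytes, were well above background on no array (0 of 13). *Reg3g*, an antimicrobial lectin of the epithelium, differed by −0.37 (SE 0.85, adjusted p = 0.968). This rested on GF WT replicate 6, at 11.91 where the other arrays of its label reached at most 8.03, and without it the difference was 0.47. *Reg3b* (adjusted p = 0.970) was well above background on 3 of 7 and 1 of 6 arrays, so no size is given. GF WT replicate 6 stood at 14.62, where the other arrays of its label reached at most 4.47. *Gapdh*, the control gene, was 17.71 ± 0.055 (SD, n = 7) and 17.75 ± 0.040 (SD, n = 6).

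The rest of the *Card9* pathway showed small differences. Of 21 members tested, 1 passed the test in the fit across all probes, *Card9*, and the median difference was 0.027 beside 0.010 over all genes. *Clec7a* (dectin-1) was 7.99 ± 0.60 (SD, n = 7) against 8.04 ± 1.11 (SD, n = 6), *Clec4n* (dectin-2) 8.17 ± 0.79 against 8.64 ± 1.08, and *Malt1* 10.18 ± 0.15 against 10.03 ± 0.18. *Rela*, the brightest member, differed by 0.006. *Clec4e* (Mincle) was well above background on no array (0 of 13). Receptor levels thus varied more among mice of 1 label than between the labels.

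Gene classes were compared with 42 lists of well-known genes, each gene by its brightest probe. Of their 634 different genes tested, 1 passed the test (*Card9*) and 65 had an unadjusted p under 0.05, which is 10.3% beside 6.55% over all genes. The list medians ran from −0.86 to 1.51, with 19 above 0 and 23 below. Since RNA came from whole colon, fewer cells of a type and less RNA per cell cannot be told apart in any of these lists. For a list, a score was also computed in each array: every member's log2 value was centred on its mean across the 13 arrays, and the centred values were averaged. For 41 lists the scores of the labels overlapped.

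**Figure D3:**
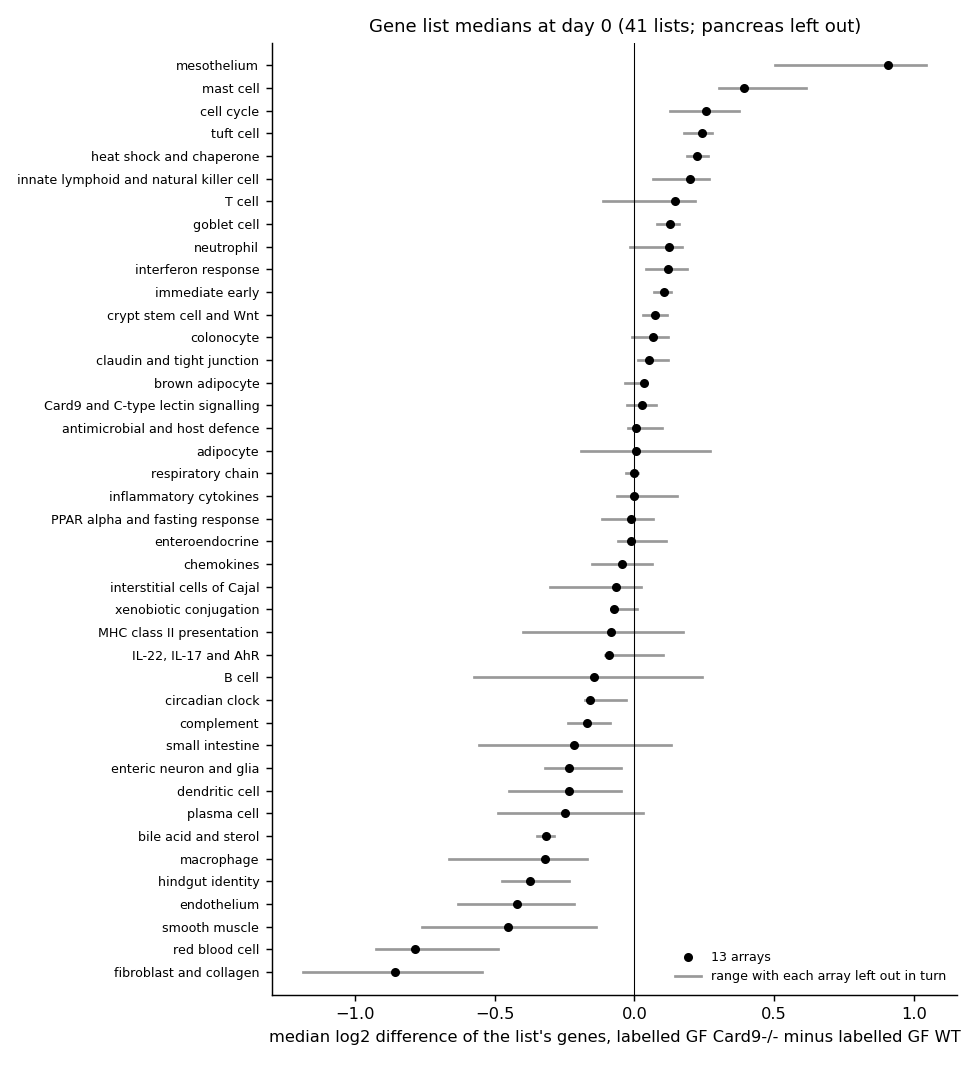
Median log2 difference (x axis) of each of 41 gene lists (y axis), with the pancreas list (1.51) left out for scale, where points are the medians over 13 arrays and grey lines the range when each array is left out in turn. The heat shock (0.22), goblet cell (0.13), tuft cell (0.24) and bile acid and sterol (−0.32) lists have narrow ranges on 1 side of 0, while the fibroblast and collagen list has the lowest median (−0.86) and a wide range.

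Heat shock genes were the list with the most members at an unadjusted p under 0.05. These genes encode chaperones that hold and refold proteins, and HSF1 turns on the inducible ones under heat or protein stress. Of 20 members 18 were higher in the arrays labelled GF Card9-/-, beside 55.4% of all genes. Of these 18, 13 had an unadjusted p under 0.05 (6.55% over all genes), 0 passed the adjusted test, and the list median was 0.22. The largest differences in the list were those of *Hspa1a* and *Hspa1b*. *Hspa1a* (HSP70) was 12.09 to 13.27 (median 12.40) in the arrays labelled GF Card9-/- and 10.88 to 12.07 (median 11.31) in those labelled GF WT, a difference of 1.13 (SE 0.23, limma adjusted p = 0.197). Its near-identical copy *Hspa1b*, whose probe may read both, differed by 1.10 (adjusted p = 0.247).

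The co-chaperones followed. *Hsph1* (HSP110) was 12.31 to 13.29 (median 12.63) against 11.66 to 12.22 (median 11.78), a difference of 0.84 (adjusted p = 0.154). *Dnaja1* was 14.69 to 15.24 (median 14.82) against 14.16 to 14.55 (median 14.29), and *Dnajb1* (HSP40), 14.41 to 14.80 (median 14.50) against 13.91 to 14.35 (median 14.09), differed by 0.44 (adjusted p = 0.201). The labels did not overlap for *Hspa1a*, *Hsph1*, *Dnaja1* and *Dnajb1*, 4 of 20 members, where 0.458% of all probes did not overlap.

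Other chaperones of the list showed smaller differences. *Hsp90ab1*, the brightest member, differed by 0.12 (adjusted p = 0.912), and *Hsp90aa1*, the stress-inducible HSP90, by 0.38 (adjusted p = 0.713). *Hspa8* differed by 0.22, *Hspd1* (HSP60) by 0.20 and *Hspe1* (HSP10) by 0.21, with adjusted p of 0.474 to 0.676. Of the chaperones of the endoplasmic reticulum, *Hspa5* (BiP) differed by 0.26 and *Hsp90b1* by 0.07. The small heat shock genes *Hspb1* (−0.43, SE 0.57) and *Hspb8* (−0.23, SE 0.46), which muscle also expresses, were the 2 lower members. The list median was 0.22, 0.24, 0.12 and 0.41 within slides 1 to 4. The list of immediate early genes, transcription factors that respond within minutes to a stimulus, had a median of 0.11, with 15 of 18 members higher (55.4% over all genes).

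Genes of bile acid and sterol metabolism lay on the other side. Cells make cholesterol through the mevalonate pathway, whose enzymes are turned on by SREBP2 when membrane sterols run low. Of 17 members tested (of 18 in the list) 16 were lower in the arrays labelled GF Card9-/-, 9 of them at an unadjusted p under 0.05 (6.55% over all genes), 0 passed the adjusted test, and the median was −0.32. The 9 include *Nr0b2*, which was well above background on 0 of 13 arrays. This was the only one of the 42 lists whose scores did not overlap, −0.27 to −0.05 in the arrays labelled GF Card9-/- and 0.02 to 0.54 in those labelled GF WT.

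Among the enzymes, *Hmgcs1* (HMG-CoA synthase, the brightest member) differed by −0.41 (SE 0.083, limma adjusted p = 0.190), with 14.99 to 15.53 (median 15.14) against 15.44 to 15.67 (median 15.60). *Fdft1* (squalene synthase) differed by −0.33, *Sqle* (squalene epoxidase) by −0.32, *Cyp51* by −0.22 and *Idi1* by −0.17, with adjusted p of 0.291 to 0.843. *Insig1*, the sterol sensor that SREBP2 induces, differed by −0.42 (adjusted p = 0.480). The synthesis enzymes named here all had lower means in the arrays labelled GF Card9-/-, while *Srebf2*, the gene for SREBP2 itself, differed by −0.02.

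The sterol exporters *Abcg8* (−0.42, adjusted p = 0.623) and *Abcg5* (−0.75, adjusted p = 0.883) were lower too. The bile acid genes were less even. *Nr1h4* (the receptor FXR) differed by −0.07 and *Slc51b* by 0.03, while *Slc51a* (−0.72, SE 0.90) was highest in GF WT replicate 6, at 15.77 where the median of that label was 10.92. The list median was −0.12, −0.43, −0.10 and −0.36 within slides 1 to 4.

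**Figure D4:**
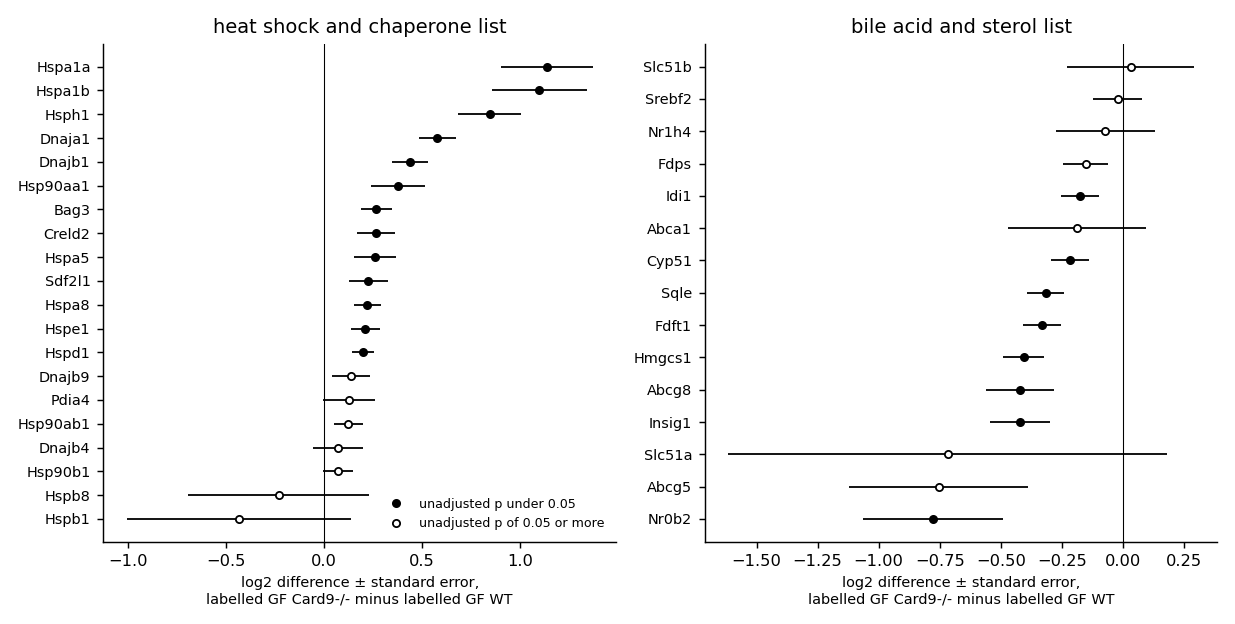
Log2 difference between the labels with its standard error (x axis) for each gene (y axis) of the heat shock and chaperone list (left, 20 genes) and the bile acid and sterol list (right, 15 of the 17 genes tested, on another scale), with filled points at an unadjusted p under 0.05. On the left 18 genes lie above 0 and *Hspa1a* (1.13) is highest, and on the right 14 genes lie below 0, among them *Nr0b2*, which was well above background on no array and whose point has no measured size.

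Tuft cell genes were all on the higher side. Tuft cells are rare chemosensory cells of the epithelium that release IL-25 and leukotrienes. All 9 members were higher in the arrays labelled GF Card9-/-, beside 55.4% of all genes. Of the 9, 4 had an unadjusted p under 0.05 (6.55% over all genes, 0 in the adjusted test), and the median was 0.24. *Pou2f3*, the transcription factor of tuft cells, was well above background on 0 of 7 and 1 of 6 arrays. *Trpm5*, the cation channel of taste transduction, was 8.66 to 9.25 (median 8.94) against 8.42 to 9.05 (median 8.51), a difference of 0.33 (SE 0.13, limma adjusted p = 0.740). *Il17rb*, the IL-25 receptor, differed by 0.24 (SE 0.081), *Alox5* by 0.27 and *Avil* by 0.17. The tuft cell marker *Dclk1* differed by 0.04. The list median was 0.52 and 0.38 within slides 1 and 4, and 0.04 and 0.03 within slides 2 and 3.

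Within the mast cell list the largest differences were those of *Mcpt1* and *Mcpt4*, both proteases. *Mcpt1*, a chymase of mucosal mast cells, was 6.43 to 9.81 (median 7.82) in the arrays labelled GF Card9-/- and 4.85 to 5.33 (median 5.16) in those labelled GF WT. The difference was 2.91 (SE 0.52, limma adjusted p = 0.120), and the labels did not overlap. *Mcpt4*, a chymase of connective tissue mast cells, was 7.16 to 9.92 (median 7.75) against 5.08 to 7.00 (median 5.88), a difference of 2.30 (SE 0.54, adjusted p = 0.272), again with no overlap. *Mcpt4* was well above background on 5 of the 6 arrays of the second label. *Mcpt2* differed by 1.12 (adjusted p = 0.636) and was well above background on 5 of 7 and 3 of 6 arrays. *Fcer1a*, the chain of the IgE receptor that binds the antibody, was well above background on 2 of 7 and 0 of 6 arrays (adjusted p = 0.565), so no size is given. *Mcpt1*, *Mcpt2* (56662265 to 56662324) and *Mcpt4* lie close together on chromosome 14.

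The other mast cell genes were less clear. *Hdc*, the enzyme that makes histamine, differed by 0.41 (adjusted p = 0.803), *Cma1* by 0.38 (SE 0.56) and *Tpsb2* by 0.06, while *Gata2* (−0.46) and *Il1rl1* (−0.10) were lower. *Cpa3* was well above background on 3 of 7 and 0 of 6 arrays, and *Ms4a2* and *Tpsab1* on no array (0 of 13). In all, 9 of 12 members were higher (55.4% over all genes), *Tpsab1* among them. Of these 9, 5 had an unadjusted p under 0.05 (6.55% over all genes, 0 in the adjusted test), *Fcer1a* among them. The median was 0.39. The scores were −0.30 to 0.94 against −0.62 to −0.07. The highest scores were those of GF Card9-/- replicates 4 (0.94), 2 (0.90) and 6 (0.57). Without GF WT replicate 2 the list median was 0.61.

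Epithelial lists had small medians. Of 12 goblet cell genes 11 were higher (55.4% over all genes), with a median of 0.13. *Zg16*, a mucus lectin and the brightest member, differed by 0.06, and *Atoh1*, the transcription factor of secretory cells, by 0.28 (SE 0.085, adjusted p = 0.540). The colonocyte list had a median of 0.065, with *Guca2a* at 18.55 ± 0.19 (SD, n = 7) against 18.36 ± 0.44 (SD, n = 6). In the crypt stem cell list *Myc* was higher by 0.51 (SE 0.090, limma adjusted p = 0.120) with no overlap, while the list median was 0.073. *Cldn8*, a tight junction gene of the distal colon, differed by 0.64 (adjusted p = 0.396), beside a median of 0.054 for the tight junction list. The respiratory chain list had a median of −0.002 over 21 genes that lay between −0.10 and 0.08.

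The host defence and cytokine lists described next gave medians of −0.092 to 0.12, and 0 of their members passed the adjusted test. The antimicrobial list had a median of 0.005, with 16 of 31 members higher (55.4% over all genes). *Ang4*, an antimicrobial ribonuclease of Paneth and goblet cells, was higher by 1.46 (SE 0.34, limma adjusted p = 0.265), and *Itln1* by 0.67 (adjusted p = 0.787). Of the receptors for microbial products, *Nod2* differed by −0.50, *Tlr2* by −0.43, *Tlr5* by −0.36 and *Tlr9* by −0.18 (adjusted p of 0.623 to 0.800). Without GF WT replicate 6 *Tlr5* differed by −0.21. The means of *Nod1* (−0.006) and *Tlr4* were nearly equal. The medians were −0.003 for inflammatory cytokines, −0.043 for chemokines, −0.092 for the IL-22, IL-17 and AhR list and 0.12 for the interferon response.

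Clock genes had differences of both signs, and 0 of them passed the adjusted test. The circadian list had a median of −0.16, with 5 of 20 members lower and 1 higher at an unadjusted p under 0.05 (6.55% over all genes). *Per3* (−0.41), *Cry2* (−0.31), *Tef* (−0.25), *Nr1d2* (−0.20) and *Bhlhe41* (well above background on 0 of 13 arrays) were lower and *Per1* (0.17) was higher, with adjusted p of 0.562 to 0.839. *Arntl* (0.24) and *Dbp* (−0.17), the brightest member, did not reach an unadjusted p of 0.05. The scores overlapped, −0.09 to 0.06 against −0.06 to 0.12. The median was 0.094 within slide 4 and below 0 within the other slides, and without GF WT replicate 5 it was −0.028.

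Markers of other cell types and tissues differed widely between arrays. The fibroblast and collagen list was lower for 22 of 22 members (median −0.86, *Sparc* the brightest at −0.75), smooth muscle for 14 of 14 (median −0.45, *Tagln* −0.39) and endothelium for 12 of 13 (median −0.42). Their scores overlapped widely, from −2.11 to 0.88 against −1.11 to 1.32 for fibroblasts and from −2.13 to 1.53 against −1.14 to 1.22 for smooth muscle. The red blood cell list had a median of −0.78 and the macrophage list of −0.32, while mesothelium was higher for 7 of 7 members (median 0.91). In these 6 lists 0 members passed the adjusted test. Without GF Card9-/- replicate 5 the medians were −0.54 for fibroblasts, −0.14 for smooth muscle, −0.22 for endothelium, −0.49 for red blood cells and −0.17 for macrophages. Without GF WT replicate 5 they were 0.50 for mesothelium and −0.66 for macrophages. Within slides 2 and 3 the smooth muscle median was above 0 (0.29 and 0.34), and within slides 1 and 4 below it (−1.80 and −0.54). Whether the makeup of the tissue pieces has a part in the differences above was not tested. Without the 3 arrays that stand farthest apart (named below), the medians were 0.20 for heat shock, −0.25 for bile acid and sterol, 0.12 for tuft cells and 0.27 for mast cells.

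**Figure D5:**
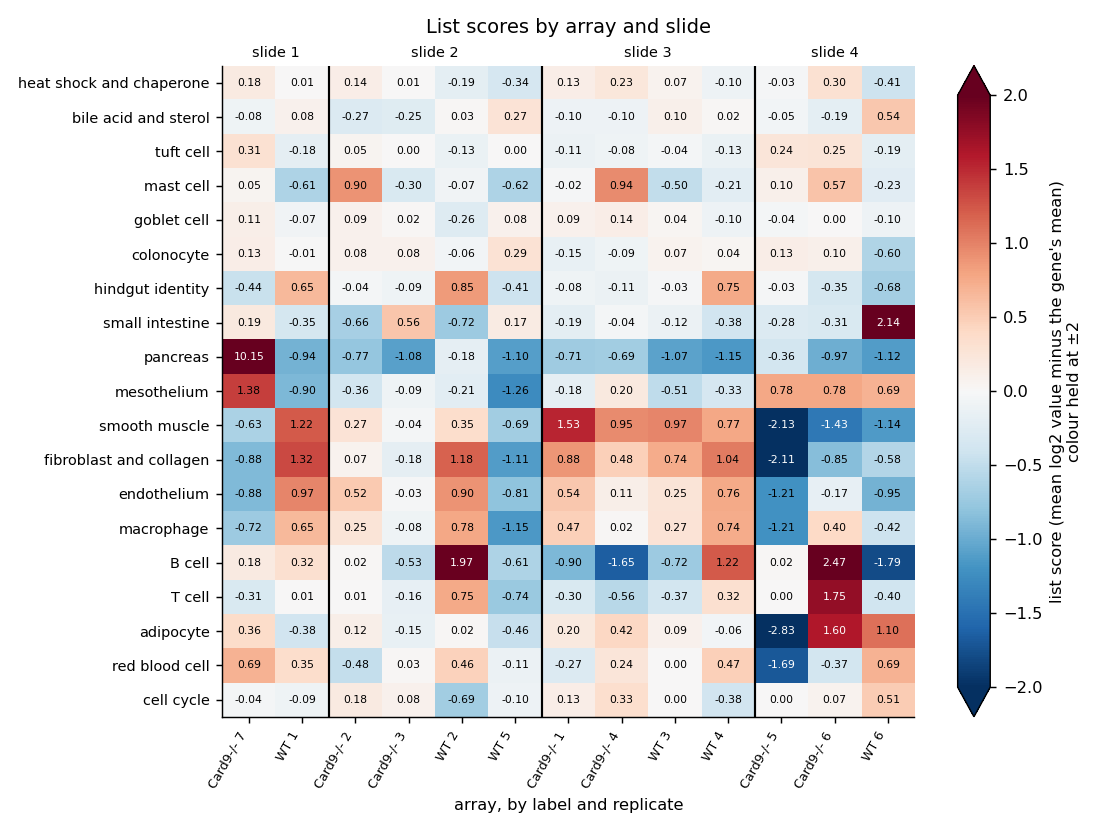
List score (average of the members' centred log2 values, given as a number in the cell, with the colour held at ±2) for 19 lists (y axis) in each array (x axis), ordered by slide. The pancreas score of GF Card9-/- replicate 7 (10.15), the small intestine score of GF WT replicate 6 (2.14) and the low smooth muscle and adipocyte scores of GF Card9-/- replicate 5 (−2.13 and −2.83) stand out from the other arrays.

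Single arrays stood far from the others. GF Card9-/- replicate 7 held exocrine pancreas transcripts: *Ctrb1* stood at 17.85 there and at 6.13 to 6.61 in the other arrays of its label, *Cela2a* at 18.90 against 8.77 to 9.56 and *Ctrl* at 15.50 against 6.11 to 7.25. Without this array the pancreas median was 0.20, where it was 1.51 with it. GF WT replicate 6 had low *Aqp8*, a water channel of the distal colon (9.56, where the other arrays were at 15.47 to 17.12), and high *Nts*, a hormone of the ileum (13.04, where the others reached 9.20). Its small intestine score was 2.14. Its hindgut score was −0.68, and *Hoxb13*, the brightest hindgut gene, had an SD of 2.62 in its label. GF Card9-/- replicate 5 was lowest for *Car3*, a carbonic anhydrase of fat and muscle (5.88, the others at 11.42 or above). GF Card9-/- replicate 6 was highest for *Glycam1*, a gene of lymph node vessels (13.08), and for the T cell (1.75) and B cell (2.47) scores.

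The other genes that varied most within the labels, among probes well above background on all 13 arrays, were *Igh-VJ558*, an immunoglobulin heavy chain segment (6.51 to 13.37), and *St8sia5*, a sialyltransferase (5.19 to 10.89). Over all tested probes the median SD within a label was 0.29, and over the 28235 probes well above background on all arrays it was 0.21. Between arrays of 1 label the SD of the difference was 0.40 to 0.93 for GF Card9-/- and 0.473 to 0.997 for GF WT, with medians of 0.728 and 0.801, and between labels its median was 0.718. Arrays of different labels were thus about as far apart as arrays of 1 label. No array pair was a duplicate, since the closest correlated at 0.994 and still differed by an SD of 0.40.

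Of the total variance, 8.08% lay between the labels, where 1 of the 12 degrees of freedom among the arrays is 8.33%. Between the slides lay 31.7%, where 3 of 12 is 25%, and between the scan sessions 7.57%. The first principal component held 30.2% of the variance and the label took up 4.95% of it, while the slide took up 48.7%. On this component GF Card9-/- replicate 5 (110) and GF WT replicate 6 (90) lay farthest from the rest, and on the second GF WT replicate 6 (109) and GF Card9-/- replicate 5 (−81) lay at opposite ends. Both are on slide 4.

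The 8 arrays of day 7, 4 of each label after 7 days of DSS, are of another design and were normalized apart. Of the 12 probes past the threshold at day 0, 3 were tested at day 7, and 0 of 44643 probes passed the limma test there, with 1511 at an unadjusted p under 0.05. *Map3k14* probe A_55_P1988664 differed by 0.70 at day 7 (adjusted p = 0.913), the unnamed transcript of A_55_P2150452 by −1.20 (adjusted p = 0.913) and *Trub2* probe A_55_P1981147 by 0.20 (adjusted p = 0.994). The sign was that of day 0 for 3 of 3, as it was for 51.5% of all 23633 probes tested at both days. Neither *Card9* probe was among the 3, so they give no check of the day 7 labels, and the signs take the labels of both days as given. In the joint fit the difference between the days passed for 0 of these 23633 probes, with 1688 at an unadjusted p under 0.05. The days also differ in array design, in DSS and in the sex-linked signal given above, and these cannot be told apart here. Of the probes with an adjusted p under 0.10 at day 0, 14 were tested at day 7 and 5 had the same sign.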

How the data were processed

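Colon RNA of 7 arrays labelled GF Card9-/- and 6 labelled GF WT was compared at day 0. The authors scanned single-color arrays and extracted spot intensities with Agilent Feature Extraction 10.7.3.1, so the deposited intensity is on a linear scale with the background already taken off. Each spot also has a deposited p-value against its local background. The authors also deposited a table of log2 values, used here as an alternative only. Probe positions are on the NCBI37 build of the files.

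The processed signal was log2-transformed and quantile normalized across the 13 arrays, with every spot included. Next, control and outlier spots were dropped and repeated spots averaged by probe. A probe entered the test if 50% or more of its spots had p under 0.05 on 60% or more of either label's arrays, with 2 or more values per label. Of the tested probes 29032 were named through RefSeq (GRCm38.p6 tables), 10050 by the files, and 8328 had no symbol. Labels were compared with limma (lmFit, eBayes, no covariate) and Benjamini-Hochberg adjustment over all tested probes. The software was R 4.3.3 with limma 3.58.1. The scripts were tested on simulated data. Precision is limited by the array number.

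The genes named are *Card9*; genes whose transcripts the study measured in colon, with *Gapdh*; up to 10 genes past the threshold in each direction with no overlap of the labels; up to 5 genes past the threshold within 5 Mb of *Card9* and on the chromosome with the highest share of such probes; list members past the threshold and the brightest member of each list described; and the 10 genes that varied most within the labels. Some genes that this rule or the lists hold are not reported here by name, though counts and medians over the lists include them. Other genes named were chosen after their values were seen. All lists and members were chosen with earlier results of these data known. Alternatives were another normalization, background correction, value table, filter, block and variance model, and leaving out arrays or a slide. The array design of day 0 is not the one that the study's methods name.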

Additional observations from a re-analysis of the deposited data

Results flagged for a closer look

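In 27 of 140 sets of values (19.3%) an array stood far from the others of its label, where chance gives about 1 in 20; 17 of 56 sets were single probes, some chosen for their spread, and 10 of 84 (11.9%) were list scores. GF WT replicate 6 had 11 of them. It was low for *Aqp8* (9.563, others 16.14 to 17.12) and *Cela2a* (6.447, others from 8.544), and high for *Ctrl* (7.78), *Reg3b* (14.62), *Reg3g* (11.91), *Lrmda* A_55_P2736465 (6.912) and *Trub2* (6.533), as for the scores of small intestine (2.14), adipocyte (1.1), PPAR alpha (1.04) and antimicrobial genes (0.43).

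GF Card9-/- replicate 7 had 7. It was high for *Cela2a* (18.9), *Ctrb1* (17.85), *Ctrl* (15.5), the pancreas score (10.15) and the antimicrobial score (0.49), and low for *Il1b* (2.796, others 5.117 to 6.562) and the crypt stem cell score (−0.22). GF Card9-/- replicate 5 was low for *Car3* (5.883) and the adipocyte score (−2.83) and high for *Il17a* (3.994, not well above background). GF Card9-/- replicate 6 was high for *Glycam1* (13.08) and the T cell score (1.75), and replicate 3 low for the unnamed transcript of A_55_P2150452 (5.917). GF WT replicate 2 was high for *Glycam1* (10.53) and the pancreas score (−0.18), and replicate 5 for *Gapdh* (17.83, others 17.72 to 17.75).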

How the results depend on the processing

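*Card9* passed the threshold in the same direction in all 25 other settings that kept more than 1 slide, with differences from 3.1 to 6.61 for A_66_P128849. The count of 12 probes past the threshold was 27 with normexp correction, 22 with the deposited table, 22 with the filter on signals well above background, 27 with a trended and robust variance, 29 at an adjusted p under 0.10 and 5 with the brightest probe of each gene; the cause was not tested, except that the last tests fewer probes. It was 0 in slide 2 alone (2088 at an unadjusted p under 0.05), 1 in slide 3 alone and 0 in slide 4 alone (5245), where limma was fitted to 4, 4 and 3 arrays. The slide 4 counts set 2 arrays against GF WT replicate 6 alone and say nothing of the label. Scaling to the 75th percentile gave 12, with 5 higher and 7 lower in place of 7 and 5. Leaving out each array gave 8 (without GF WT replicate 1 or 4) to 16 (without GF WT replicate 6). With the replicate number as a block the count was 7. Same-numbered arrays correlated at −0.0221 to 0.375, over 0.1 in 3 of 6 pairs, and 2 of 6 correlated best with their own number, so the numbers were not taken to pair the samples.

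Within 5 Mb of *Card9* the count of 3 was 5 with normexp correction, 5 with the stricter filter, 5 without the 3 arrays that stand apart (GF WT replicate 6, GF Card9-/- replicates 5 and 7, chosen after seeing the data) and 2 to 6 with each array left out. On chromosome 14 it was 3 to 6. The median SD within a label was 0.187 in the deposited table. *Il1b* was higher with the replicate block (0.314), without GF Card9-/- replicate 7 (0.314), without GF WT replicates 1, 2 or 4 (0.0323, 0.173 and 0.103) and without the 3 arrays (0.266). The following values of *Il22* and *Reg3b* carry no direction, since *Il22* was well above background on 0 of 13 arrays and *Reg3b* on 4. The difference of *Il22* was 0.0836 without GF Card9-/- replicate 3, 0.0479 without slide 4 and 0.153 with dim values raised. Those of *Reg3b* and *Reg3g* were above 0 without GF WT replicate 6 (1.15 and 0.471), without slide 4 (1.84 and 0.769) and without the 3 arrays (1.25 and 0.411). With each array left out, *Reg3b* ranged down to −1.28, *Il1b* to −0.624, *Reg3g* to −0.721 and *Il22* to −0.263. Raising dim values to the lowest signal well above background moved the median of all probes from 0.015 to 0.069.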
